A study of Homo sapiens with 2 samples.

Results

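Kinesins are motor proteins that turn the energy of ATP into movement along microtubules, and the human genes for them carry symbols that begin with KIF. Members were taken as every probe set of the array annotated to exactly 1 gene symbol that starts with KIF and a digit, or with KIFC and a digit. This gave 91 of 54675 probe sets and 45 of 19775 gene symbols. By textbook role 13 of these genes encode mitotic kinesins, 15 cargo transport kinesins and 13 kinesins of other roles, and 4 symbols are antisense RNAs named after a kinesin gene. KIF4B, the remaining mitotic kinesin listed, had no probe set under its own symbol.

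PLC/PRF/5 is an established cell line from a human liver cancer (hepatocellular carcinoma, HCC), and its RNA was measured on 2 Affymetrix arrays. The first array held chemoresistant hepatospheres, which are spheroids of these cells under combined cisplatin, which crosslinks DNA, and doxorubicin, which traps topoisomerase II on DNA. The second held differentiated HCC cells, obtained from spheroids that were given FBS (fetal bovine serum) and left to attach. Whether these attached cells had met the drugs earlier is not given in the labels, and spheroid growth, serum, attachment and possibly drug exposure cannot be told apart. With 1 array per group there was no replicate, so no difference carries an error or a test, and precision is limited by the number of arrays. All values describe these 2 arrays.

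Mitotic kinesins build the spindle, move and align chromosomes, and organise the midzone at which a dividing cell splits. Their RNAs are known to be made mainly in the second part of the cell cycle, and cells that leave the cycle hold little of them. Transport kinesins carry vesicles, endosomes, mitochondria and ciliary cargo in dividing and resting cells alike, and several of them are best known from nerve cells. The comparison asks how the RNAs of the 2 kinds of motor differ between drug-resistant hepatospheres and their differentiated counterparts.

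Signals are MAS5 values and linear, and differences are log2 signals in hepatospheres minus those in differentiated cells. Each gene was read on its brightest probe set (by mean log2 signal). A gene counted as measured when it reached a floor of 84.1, the higher of the median signals of the 2 arrays, on either array, and lower signals were set to the floor. On this basis 12 of 13 mitotic, 14 of 15 transport and 9 of 13 other kinesin genes were measured. In bulk RNA such as this, fewer cells of a kind and less RNA per cell cannot be told apart.

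Mitotic kinesins were lower in hepatospheres. Of the 12 measured, 9 were at least 2-fold lower, 0 were at least 2-fold higher and 3 were within 2-fold, with a median difference of -1.23. Among all 12766 genes measured, 8.83% were at least 2-fold lower and the median was 0.05. Transport kinesins had 0 of 14 at least 2-fold lower and 2 at least 2-fold higher (KIF3C and KIF5C), against 12.5% of all genes at least 2-fold higher, and their median was 0.05. The median of mitotic minus that of transport kinesins was -1.28 on the log2 scale. Scaled to the poly(A) control RNAs, which shifts the median of all genes by -0.99, mitotic kinesins stood at -2.27 and transport kinesins at -1.03. The sign of a transport motor is thus readable only against the bulk of genes. Signs of single motors near 0 are not settled, since KIF1B and KIF1C turned with median centring and KIF5B with quantile normalization. Mitosis genes as a class were already known to be lower on these arrays, so the direction for the mitotic motors is not independent evidence.

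Both arrays held liver-type RNA. All 6 liver and hepatoma markers listed reached the floor, with a summed signal of 143656 in hepatospheres and 56779 in differentiated cells, and albumin (ALB) read 27887 in hepatospheres and 10276 in differentiated cells. AFP, the fetal liver protein alpha-fetoprotein, was the 1 marker of the list that went the other way, at 433 in hepatospheres and 2451 in differentiated cells, 5.66-fold lower. Of 3 leukocyte markers 0 reached the floor, with PTPRC at 4.38 in hepatospheres and 25.1 in differentiated cells, CD3E at 51.4 in hepatospheres and 69.8 in differentiated cells, and no CD68 probe set under that symbol alone. Of 3 endothelial markers PECAM1 alone did, at 3787 in hepatospheres and 3388 in differentiated cells, with VWF and CDH5 under the floor. Of 3 fibroblast markers COL1A1 alone did, at 471 in hepatospheres and 290 in differentiated cells. The poly(A) control RNAs read 2.07-fold higher on the hepatosphere array, and the 3′ to 5′ signal ratio of ACTB was 2.64 there and 1.48 on the differentiated array, while that of GAPDH was 1.04 on the hepatosphere array and 0.987 on the differentiated array. Their part in the kinesin differences was not tested.

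**Figure D1:**
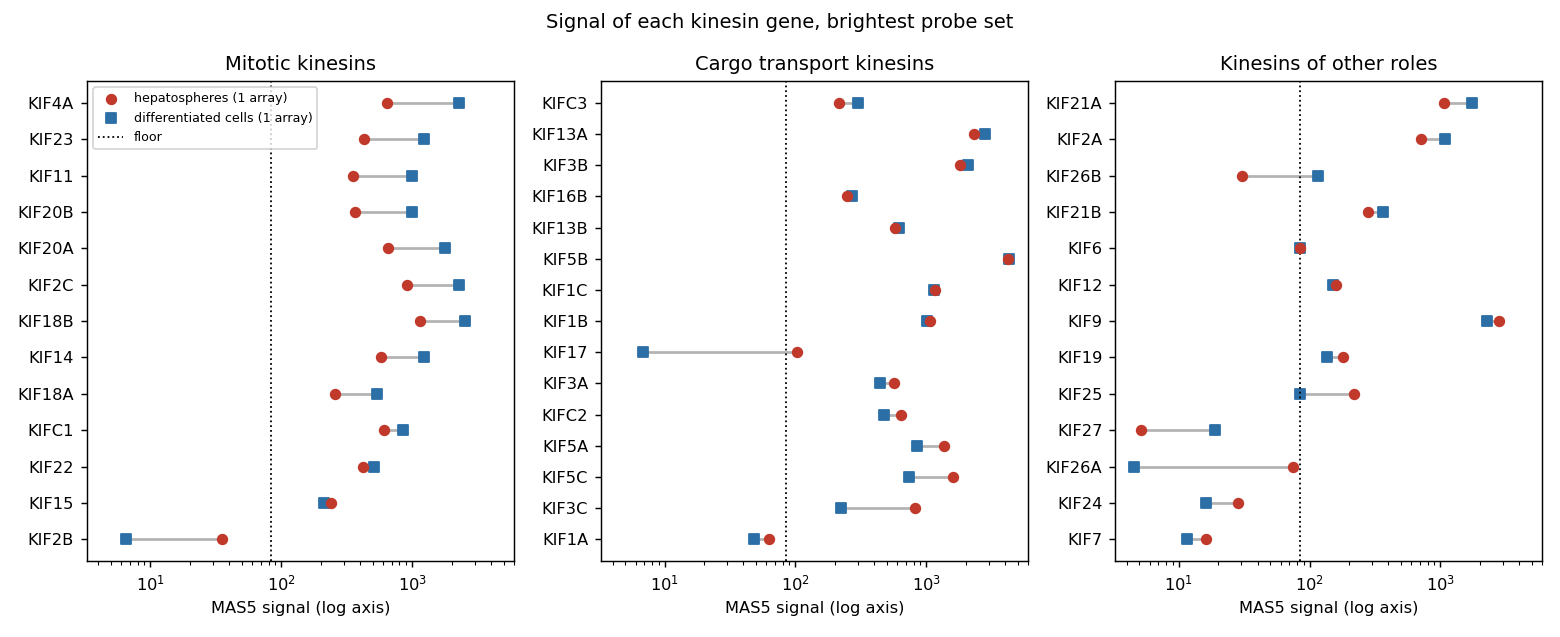
MAS5 signal of each kinesin gene on its brightest probe set (log axis), in hepatospheres (circles) and differentiated cells (squares), 1 array each, with the floor of 84.1 dotted. The circles lie left of the squares for 11 of the 12 measured mitotic kinesins, while those of the transport kinesins lie on both sides.

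Promoters of mitotic genes are known for a pair of short elements, a CCAAT box bound by NF-Y and a cell cycle homology region (CHR) bound by the DREAM and MYB-MuvB complexes, which hold such genes silent in resting cells and switch them on before mitosis. The promoters of kinesin genes were therefore searched for CCAAT and for the CHR spellings TTTGAA and TTCGAA, on both strands. Sequences are those of RefSeq for GRCh38.p14. The 100 bases before the annotated start, 5′ to 3′ on the gene's strand and outside the transcript that begins there, are shown with matches in capitals for the mitotic motors on the array that hold both elements there, from the largest difference to the smallest. ATTGG is CCAAT on the opposite strand and TTCAAA is TTTGAA on the opposite strand.
KIF4A: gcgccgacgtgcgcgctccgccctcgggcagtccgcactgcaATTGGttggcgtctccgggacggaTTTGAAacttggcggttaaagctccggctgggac
KIF23: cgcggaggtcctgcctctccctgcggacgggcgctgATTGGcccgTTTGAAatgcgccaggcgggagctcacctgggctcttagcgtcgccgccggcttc
KIF11: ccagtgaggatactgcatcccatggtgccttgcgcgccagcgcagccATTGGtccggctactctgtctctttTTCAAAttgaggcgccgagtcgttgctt
KIF18A: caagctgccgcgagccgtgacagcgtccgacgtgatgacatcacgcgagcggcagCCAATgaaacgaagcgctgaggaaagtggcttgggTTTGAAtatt
KIF22: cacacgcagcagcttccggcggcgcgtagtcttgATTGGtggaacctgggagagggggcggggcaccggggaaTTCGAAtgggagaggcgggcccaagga
These windows are chrX:70290004-70290103 (plus strand) for KIF4A, chr15:69414249-69414348 (plus strand) for KIF23, chr10:92593030-92593129 (plus strand) for KIF11, chr11:28108157-28108256 (minus strand) for KIF18A and chr16:29790651-29790750 (plus strand) for KIF22. The matches of the 2 elements do not overlap in any of them. In KIF4A the CCAAT match begins 58 bases and the CHR match 34 bases before the start, and in KIF11 they begin 53 and 28 bases before it.

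Other motors depart from this layout and are shown for contrast. KIF20A holds a pair of CCAAT matches and no CHR match, KIF15 a CHR match and no CCAAT match, and KIF2C neither. The transport motors KIF3B and KIF3C have a lone CCAAT match and no match in these windows.
KIF20A: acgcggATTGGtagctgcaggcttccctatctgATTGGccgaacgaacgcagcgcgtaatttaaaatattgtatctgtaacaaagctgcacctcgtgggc
KIF15: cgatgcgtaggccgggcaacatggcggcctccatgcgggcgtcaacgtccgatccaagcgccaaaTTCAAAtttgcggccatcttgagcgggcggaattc
KIF2C: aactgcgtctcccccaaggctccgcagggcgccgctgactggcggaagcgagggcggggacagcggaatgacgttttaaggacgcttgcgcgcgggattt
KIF3B: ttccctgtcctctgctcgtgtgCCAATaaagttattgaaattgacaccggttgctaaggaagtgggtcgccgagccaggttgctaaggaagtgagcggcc
KIF3C: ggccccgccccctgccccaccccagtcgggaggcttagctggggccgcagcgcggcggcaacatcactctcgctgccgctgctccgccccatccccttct
They lie at chr5:138179012-138179111 (plus strand) for KIF20A, chr3:44761694-44761793 (plus strand) for KIF15, chr1:44739737-44739836 (plus strand) for KIF2C, chr20:32277551-32277650 (plus strand) for KIF3B and chr2:25982498-25982597 (minus strand) for KIF3C.

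All 14 listed mitotic genes, KIF4B included, had at least 1 promoter in the table, 15 windows in all. Over the 250 bases before the start, 7 of these 15 windows held a CHR match and 11 a CCAAT match. Of the 35116 promoter windows of all genes, 14.3% held a CHR match and 32.0% a CCAAT match over the same length. For transport kinesins, 11 of 15 genes were in the table, with 16 windows, of which 1 (KIF5B) held a CHR match and 5 a CCAAT match. KIF5A, KIF13B, KIFC2 and KIFC3 had no entry. For kinesins of other roles 9 of 13 genes gave 12 windows, with a CHR match in 0 and a CCAAT match in 4, and KIF19, KIF21B, KIF26B and KIF27 had no entry. Windows of 1 gene can overlap, as for KIF22, whose 2 windows share the same CHR match. By gene, 6 of the 14 mitotic genes held a CHR match and 11 a CCAAT match.

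Several mitotic kinesins carry the CHR match at or just after the start. With the window extended to 50 bases past it, a choice made after the matches were seen, 12 of 15 mitotic windows held a CHR match, against 1 of 16 transport windows and 16.4% of all promoters. KIF14, KIF18B, KIF20B, KIF4B and KIFC1 were added in this way, so that 11 of the 14 mitotic genes held a CHR match. Both elements were then held by 10 of 15 mitotic windows, against 6.38% of all promoters. Whether the elements go with the size of the difference was not tested, and with 3 genes within 2-fold the counts cannot decide it. A CHR match in the extended window was found for 7 of the 9 genes at least 2-fold lower and for all 3 genes within 2-fold. A CCAAT match was found for 8 of the 9 and 2 of the 3. A match is a description of letters, not a shown binding site.

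**Figure D2:**
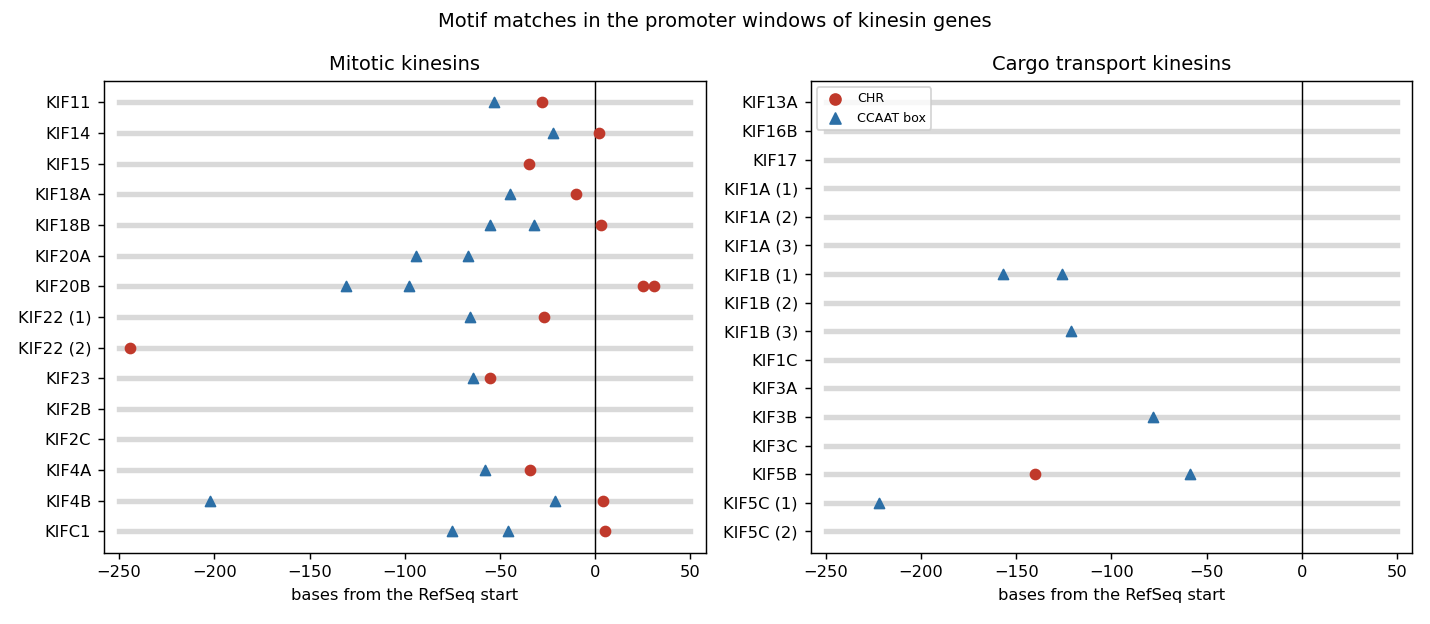
Positions of CHR matches (circles) and CCAAT box matches (triangles) in each promoter window, in bases from the RefSeq start (line at 0), with 1 row per window for mitotic and transport kinesin genes. CHR matches occur in 12 of 15 mitotic rows and 1 of 16 transport rows.

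Motors that build the spindle were split. KIF11 (Eg5), the kinesin-5 that slides antiparallel microtubules apart to separate the spindle poles, read 351 in hepatospheres and 991 in differentiated cells, 2.82-fold lower. KIF15, the kinesin-12 that helps KIF11 to keep a spindle bipolar, read 240 in hepatospheres and 214 in differentiated cells, a difference of 0.17. It was the only measured mitotic kinesin with a difference above 0. KIFC1 (HSET), a minus-end-directed kinesin-14 that focuses spindle poles and gathers surplus centrosomes, read 606 in hepatospheres and 852 in differentiated cells, 1.41-fold lower and within 2-fold. KIF15 stood at -0.09 with median centring of the arrays and at -0.88 when they were scaled to the poly(A) controls, so its direction depends on the scaling.

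Motors that act on chromosomes and on microtubule tips were mostly lower. KIF4A, a chromokinesin that compacts chromosomes and shortens the overlap of microtubules in anaphase, read 643 in hepatospheres and 2293 in differentiated cells, 3.57-fold lower and the furthest apart of the mitotic motors. Only 1.48% of all measured genes lay lower. KIF22 (Kid), the chromokinesin that pushes chromosome arms away from the poles, was within 2-fold at 423 in hepatospheres and 510 in differentiated cells, a difference of -0.27, and its other probe set stood at -0.69. KIF2C (MCAK), a kinesin-13 that takes microtubules apart to correct faulty chromosome attachments, read 920 in hepatospheres and 2262 in differentiated cells, 2.46-fold lower. Its other probe set gave -1.23 against -1.30, so both went the same way by nearly the same amount. KIF18A, the kinesin-8 that damps the swinging of chromosomes at the metaphase plate, read 258 in hepatospheres and 539 in differentiated cells, 2.09-fold lower. KIF18B, its relative on astral microtubules, read 1148 in hepatospheres and 2551 in differentiated cells, 2.22-fold lower. These 2, with KIF14, lay closest to the 2-fold limit. KIF2B, another kinesin-13, read 35.4 in hepatospheres and 6.51 in differentiated cells, under the floor on both arrays, and no fold is given.

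All 4 motors of the midzone and of cytokinesis were at least 2-fold lower. KIF23 (MKLP1), the motor of the centralspindlin complex, read 427 in hepatospheres and 1224 in differentiated cells, 2.87-fold lower. Its dimmer probe set, the only one left without shared-sequence probe sets, read 123 in hepatospheres and 189 in differentiated cells, a difference of -0.62. KIF20A (MKLP2), which brings the Aurora B complex to the midzone, read 656 in hepatospheres and 1784 in differentiated cells, 2.72-fold lower. KIF20B (MPP1), a further cytokinesis motor of the same kinesin-6 subfamily, read 368 in hepatospheres and 1005 in differentiated cells, 2.73-fold lower, while its remaining probe sets lay below the floor on both arrays. KIF14, which works with citron kinase in cytokinesis, read 580 in hepatospheres and 1230 in differentiated cells, 2.12-fold lower. The other KIF14 probe set read 597 in hepatospheres and 1108 in differentiated cells, a difference of -0.89, so this gene lies close to the 2-fold limit on either.

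Over single probe sets, 16 of the 19 for mitotic kinesins reached the floor on either array, and 15 of these 16 were lower in hepatospheres, KIF15 being the exception. These probe sets come from 12 genes, some with several, so they are not separate readings. By gene, on the brightest probe set, 11 of 12 were lower by any amount, against 47.3% of all measured genes. No such share was taken over all probe sets. Of 39 transport kinesin probe sets 33 reached the floor, of which 13 were lower and 20 higher. Across all genes with several probe sets above the floor on both arrays, the SD of the log2 difference between probe sets of a gene was 0.51, which is the only measure of spread that these arrays give.

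**Figure D3:**
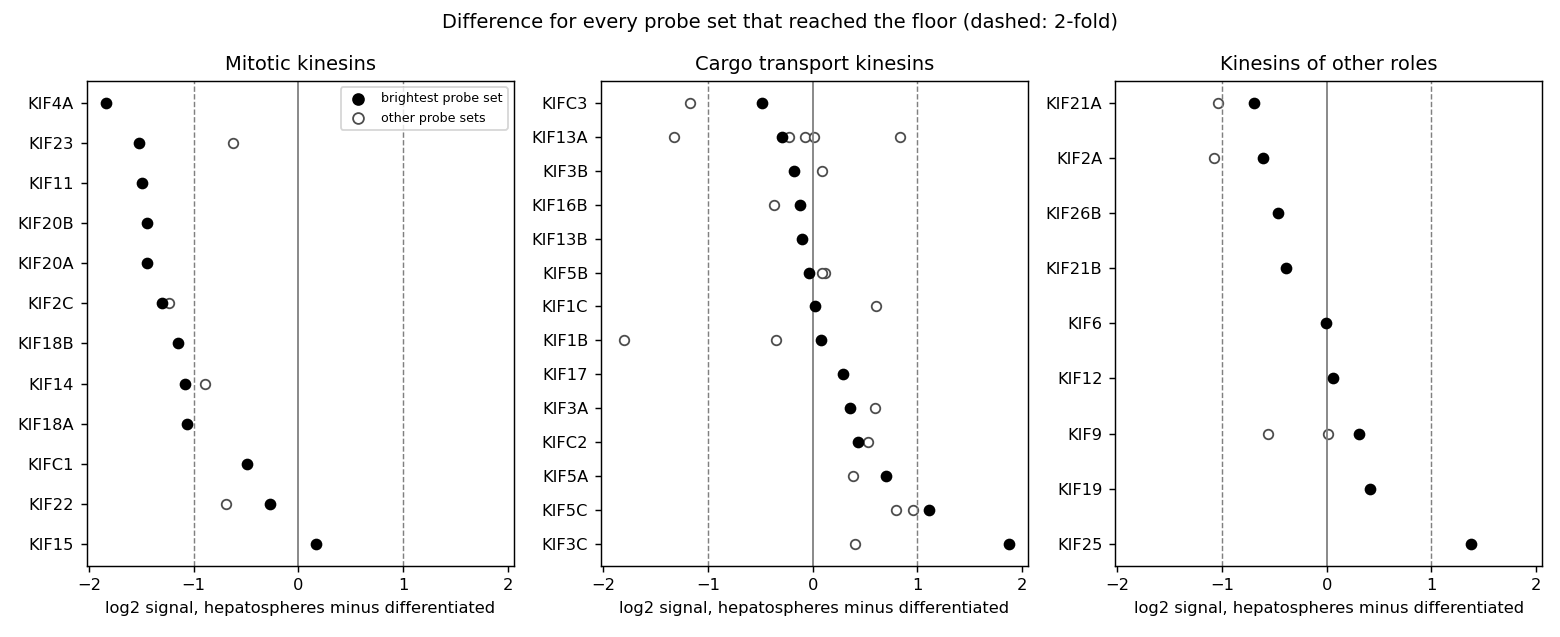
Log2 signal in hepatospheres minus differentiated cells for every kinesin probe set that reached the floor, with filled points for the brightest probe set of a gene and open points for the others, and dashed lines at 2-fold. With the deposited scaling the mitotic points lie left of 0 except for KIF15, which turns below 0 with median centring or poly(A) scaling, whereas KIF1B and KIF13A have probe sets far apart.

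Kinesin-1, the heavy chain of the classic cargo motor, was not uniform across its 3 genes. KIF5B, its widely expressed form, read 4190 in hepatospheres and 4276 in differentiated cells, a difference of -0.03, and its other probe sets stood at 0.09 and 0.12. The level thus stayed close on all 3 probe sets. KIF5C, a form best known from neurons, read 1588 in hepatospheres and 733 in differentiated cells, 2.17-fold higher. Its dimmer probe sets went the same way, at 221 in hepatospheres against 114 in differentiated cells and at 146 in hepatospheres against 48.0 in differentiated cells, the last of these under the floor. KIF5C stood at 0.86 with median centring. Without shared-sequence probe sets it rests on that dimmest probe set, where 0.80 is a lower bound against the floor and the difference without a floor is 1.61, so neither this value nor the 0.96 of the mean over probe sets, which includes the bound, places KIF5C within 2-fold. KIF5A, the other form best known from neurons, read 1375 in hepatospheres and 846 in differentiated cells, a difference of 0.70. Its probe sets disagree in brightness, since another one read 17.9 in hepatospheres and 32.5 in differentiated cells, under the floor on both arrays.

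Kinesin-2 motors, which carry cargo into cilia and along the cytoplasm, were led by KIF3C among those above the floor on both arrays. KIF3A and KIF3B pair with the adaptor KIFAP3 to drive intraflagellar transport. KIF3A read 565 in hepatospheres and 441 in differentiated cells, a difference of 0.36, and KIF3B read 1821 in hepatospheres and 2066 in differentiated cells, a difference of -0.18. KIF3C, an alternative partner of KIF3A known mainly from neurons, read 821 in hepatospheres and 224 in differentiated cells, 3.66-fold higher. It was the furthest apart of the transport motors above the floor on both arrays. The 3.66-fold size came from a probe set whose name marks shared sequence. The other KIF3C probe set read 166 in hepatospheres and 125 in differentiated cells, a difference of 0.40. KIF17, which works as a pair of like chains, read 103 in hepatospheres and 6.83 in differentiated cells, so it was at least 1.22-fold higher against the floor.

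Kinesin-3 motors of vesicles and endosomes were within 2-fold on their brightest probe sets. KIF1B, a carrier of mitochondria and synaptic vesicle precursors, read 1075 in hepatospheres and 1018 in differentiated cells, a difference of 0.08. A second KIF1B probe set read 380 in hepatospheres and 1325 in differentiated cells, a difference of -1.80, and the remaining one above the floor stood at -0.34, so KIF1B stood at -0.69 with the mean over probe sets. The direction for KIF1B is therefore not settled by these arrays. KIF1C, which moves vesicles that hold integrins, read 1162 in hepatospheres and 1145 in differentiated cells, a difference of 0.02, and KIF1A, the neuronal vesicle motor, lay under the floor at 63.0 in hepatospheres and 48.6 in differentiated cells. KIF13A, which moves recycling endosomes and mannose 6-phosphate receptors, read 2297 in hepatospheres and 2811 in differentiated cells, a difference of -0.29. Its 6 probe sets ran between -1.32 and 0.83, the lowest being a bound against the floor, with 4 lower and 2 higher. KIF13B read 580 in hepatospheres and 622 in differentiated cells, a difference of -0.10, and KIF16B, which binds early endosomes through a lipid-binding domain, read 247 in hepatospheres and 269 in differentiated cells, a difference of -0.12.

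The minus-end-directed carriers of the kinesin-14 subfamily went in different directions. KIFC2 read 643 in hepatospheres and 475 in differentiated cells, a difference of 0.44, and its second probe set stood at 0.53. KIFC3, which acts at cell junctions and the Golgi, read 215 in hepatospheres and 301 in differentiated cells, a difference of -0.48. A second KIFC3 probe set read 129 in hepatospheres and 288 in differentiated cells, a difference of -1.17, so both KIFC3 probe sets were lower.

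Members of 1 subfamily often serve different roles, which allows the roles to be set side by side within it. In kinesin-3, the mitotic KIF14 stood at -1.08, while the 5 measured transport motors stood between -0.29 and 0.08. In kinesin-4, the mitotic KIF4A stood at -1.84, and KIF21A and KIF21B, which restrain microtubule growth, stood at -0.69 and -0.39. In kinesin-13, the mitotic KIF2C stood at -1.30, and KIF2A, which acts both at spindle poles and in interphase cells, stood at -0.61. In kinesin-8, the mitotic KIF18A and KIF18B stood at -1.06 and -1.15, and KIF19, a motor that trims ciliary tips, stood at 0.41. In each of these 4 subfamilies the mitotic member was the lower one on the brightest probe sets. Other probe sets in kinesin-3 went below KIF14, at -1.80 for KIF1B and -1.32 for KIF13A, the latter a bound against the floor. Second probe sets also narrowed the gap elsewhere. That of KIF21A stood at -1.04. That of KIF2A stood at -1.08, again a bound against the floor, beside -1.23 for the second one of KIF2C. In kinesin-14, the mitotic KIFC1 at -0.49 was nearly level with the carrier KIFC3 at -0.48 and lay below the carrier KIFC2 at 0.44. In kinesin-12 the mitotic member was not the lower one, with KIF15 at 0.17 beside KIF12 at 0.06.

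Kinesins of other roles had 0 of 9 measured genes at least 2-fold lower and 1 at least 2-fold higher, with a median of -0.0045. Among all measured genes 8.83% were at least 2-fold lower and 12.5% at least 2-fold higher. KIF21A read 1068 in hepatospheres and 1729 in differentiated cells and its other probe set stood at -1.04. KIF2A read 714 in hepatospheres and 1091 in differentiated cells, and its other probe set read 77.7 in hepatospheres and 178 in differentiated cells, at least 2.11-fold lower against the floor. KIF21B read 280 in hepatospheres and 366 in differentiated cells. KIF25 was the 1 higher gene, at 219 in hepatospheres and 84.6 in differentiated cells, 2.59-fold higher, but the signal in differentiated cells lies at the floor and the probe set name marks cross-matching sequence. KIF12, a gene mutated in a cholestatic liver disease, read 159 in hepatospheres and 152 in differentiated cells. KIF9, a motor of motile cilia, read 2824 in hepatospheres and 2283 in differentiated cells, a difference of 0.31, on probe sets whose names all mark cross-matching sequence where they reach the floor, and 1 of these 3 was lower at -0.56. KIF19 read 179 in hepatospheres and 135 in differentiated cells. KIF6 read 84.1 in hepatospheres and 84.4 in differentiated cells, at the floor, and KIF26B read 30.2 in hepatospheres and 116 in differentiated cells, at least 1.38-fold lower. Under the floor on both arrays were KIF7, a regulator of Hedgehog signalling at the ciliary tip, KIF24, KIF26A and KIF27. Of the antisense RNAs, KIF9-AS1 read 101 in hepatospheres and 80.1 in differentiated cells (at least 1.20-fold higher), and KIF1C-AS1, KIF23-AS1 and KIF25-AS1 lay under the floor.

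Partners of the 2 kinds of motor were set beside them, and the spindle list also took in cell cycle regulators such as FOXM1, CDK1 and CCNB1. Mitosis genes were already known to be lower on these arrays, so the direction of this list is not independent evidence. Of 22 listed spindle and midzone partners, 21 were measured, of which 9 were at least 2-fold lower and 0 at least 2-fold higher. Their median was -0.92 and every difference lay below 0, although NUMA1 stood at 1.24 once shared-sequence probe sets were left out. Among all measured genes 8.83% were at least 2-fold lower and 47.3% lay below 0. FOXM1, a transcription factor that drives many mitotic genes, read 386 in hepatospheres and 1785 in differentiated cells, 4.62-fold lower. HMMR, which helps to focus the spindle, was 3.84-fold lower, the kinetochore kinesin CENPE 3.56-fold lower and the mitotic kinase PLK1 3.08-fold lower. CENPE is a kinesin by protein but not by symbol, so it was not among the members. Over the list 12 of the 21 measured partners were within 2-fold. Those past it also included BIRC5 at -1.33, ASPM at -1.56, KNSTRN at -1.11, CDK1 at -1.17 and CCNB1 at -1.57. The direct partners of spindle and midzone motors named next are only a part of the list, and were within 2-fold with the deposited scaling. PRC1, which bundles midzone microtubules and recruits KIF4A, read 2620 in hepatospheres and 4120 in differentiated cells, a difference of -0.65. AURKB, the kinase carried by KIF20A, stood at -0.80, RACGAP1, which joins KIF23 in centralspindlin, at -0.91, and TPX2, which binds KIF11 on the spindle, at -0.98. With median centring AURKB stood at -1.05, RACGAP1 at -1.16 and TPX2 at -1.23, all past 2-fold, and AURKB stood at -1.09 with the mean over probe sets. RACGAP1 was named after its value was seen. CIT had no probe set with its symbol alone.

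Adaptors and the opposing motor were close to the bulk of genes. Of 22 listed kinesin cargo adaptors, 19 were measured, with 0 at least 2-fold lower, 2 at least 2-fold higher and a median of 0.23. The 2 higher make 10.5% of the list, against 12.5% of all measured genes. RHOT1 (Miro1), which anchors kinesin to mitochondria, read 2454 in hepatospheres and 1079 in differentiated cells, 2.27-fold higher. MAPK8IP3 (JIP3), a scaffold between kinesin-1 and its cargo, read 424 in hepatospheres and 189 in differentiated cells, 2.24-fold higher. Of the kinesin light chains, KLC3 stood at 0.97, KLC4 at 0.73 and KLC1 at 0.66, although 3 of the 4 KLC1 probe sets were lower. The sign for KLC1 turned with the mean over probe sets (-0.18) and without shared-sequence probe sets (-0.46), and KLC3 stood at 0.24 with the floor at the 60th percentile. KIFAP3, the adaptor of KIF3A and KIF3B, read 836 in hepatospheres and 554 in differentiated cells, a difference of 0.59, and TRAK1, another mitochondrial adaptor, stood at -0.10. MAPK8IP1 lay under the floor on both arrays.

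Of 23 listed genes of dynein, the minus-end motor, and its activator dynactin, 21 were measured, with 0 at least 2-fold lower, 2 at least 2-fold higher and a median of 0.01. The 2 higher make 9.52% of the list, against 12.5% of all measured genes. The dynein heavy chain DYNC1H1 read 3579 in hepatospheres and 3383 in differentiated cells, a difference of 0.08. The regulator NDEL1 read 2913 in hepatospheres and 1194 in differentiated cells, 2.44-fold higher, and the light intermediate chain DYNC1LI2 read 9556 in hepatospheres and 4475 in differentiated cells, 2.14-fold higher. The light chain DYNLT3 stood at 0.76 and the adaptor BICD1 at 0.69. The interval between the medians of spindle partners and of the other lists has no test on these arrays.

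**Figure D4:**
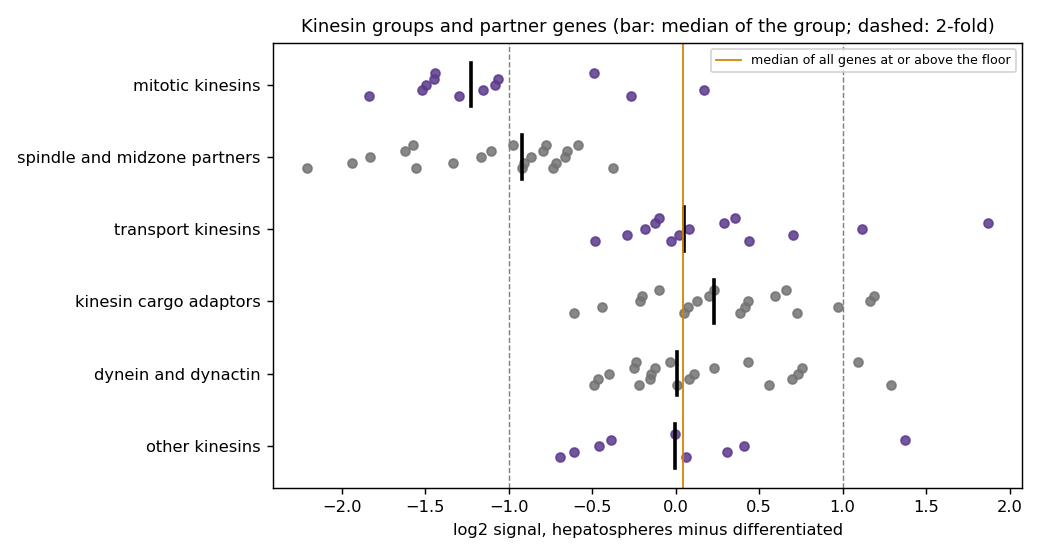
Log2 signal in hepatospheres minus differentiated cells for each measured gene of 6 groups, with a black bar at the group's median, an orange line at the median of all measured genes (0.05) and dashed lines at 2-fold. Mitotic kinesins (median -1.23) and spindle partners (median -0.92) lie left of the other groups, whose medians lie between -0.0045 and 0.23.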

How the data were processed

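Total RNA was extracted with Trizol, per the labels' protocols, and carried a biotin label. The deposited intensity values are 1 MAS5 signal per probe set and array on a linear scale, with MAS5 named in the submitters' processing notes. Neither the MAS5 version nor its scaling target is given in these sources. MAS5 subtracts background and mismatch brightness, so weak signals are noisy, and it scales each array globally. Median signals were 84.1 in hepatospheres and 70.6 in differentiated cells, and no detection calls were used.

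Gene names came from GEO's annotation of the platform, in which 41091 probe sets had 1 gene symbol, 1801 several and 11721 none, beside 62 control probe sets. All 91 kinesin probe sets matched a RefSeq gene of GRCh38.p14. The members and lists were chosen with earlier results of these data known. Every measured kinesin was to be named with its values, and, from each partner list, the 4 genes furthest apart among those above the floor on both arrays, plus 8 fixed genes over all lists. RACGAP1 and NUMA1 were picked after seeing their values. Roles, subfamilies and functions are textbook knowledge. Shared-sequence probe sets are those whose names end in _s_at, _x_at or _a_at. The calculation was tested on simulated data. Software was Python 3.11.15 with matplotlib 3.10.9, statsmodels 0.14.6, pandas 2.3.3 and numpy 2.4.6. Alternatives were other scalings (median centring, quantile, loess with span 0.3, poly(A) controls), floors at the 40th and 60th percentiles or none, the floor added to the signal before log2, a mean across probe sets, no shared-sequence probe sets, a fold of 1.5 and other role assignments. Added after seeing the data were the longer promoter window, restriction to genes above the floor on both arrays, and the difference between KIF11 and KIF15.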

Additional observations from a re-analysis of the deposited data

How the results depend on the processing

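No paired analysis was possible because each group has 1 array. The median of mitotic minus that of transport kinesins lay between -1.31 and -1.20 in every alternative. Median centring and poly(A) scaling largely cancel in it. The number of mitotic kinesins at least 2-fold lower lay between 6 (of 8 measured, without shared-sequence probe sets) and 11 (scaling to poly(A) controls), with 0 at least 2-fold higher in each. It was 7 of 12 with the floor added to the signal, where KIF14 stood at -0.98 and KIF18A at -0.86. With loess or the mean over probe sets it was 8 of 12. With 1 array each, no setting gives an error, so shifts were sized against the spread between probe sets of a gene (0.51). It holds no variation between arrays or cultures and only sorts shifts by size. Given are counts that changed by over 1.5 times and medians that shifted by more than the standard error this spread gives a list's median. Named genes are given where they shifted by more than the spread, unless under poly(A) scaling or beside their result.

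Poly(A) scaling shifted the median of all genes by -0.99, and median centring by -0.23. Under poly(A) scaling 5856 of 12393 measured genes were at least 2-fold lower and 394 higher. The medians were then -2.27 for mitotic, -1.03 for transport and -0.74 for other kinesins, -1.97 for spindle partners, -0.82 for adaptors and -1.06 for dynein. At least 2-fold lower were 7 of 13 measured transport kinesins, 3 of 9 other kinesins and 21 of 21 spindle partners. Adaptors had 5 of 19 lower and dynein genes 11 of 20, beside 5856 of 12393 genes. In each of these lists 0 were at least 2-fold higher. Signs of transport motors are thus readable only against the bulk of genes. Near 0, KIF1B and KIF1C also turned with median centring and KIF5B with quantile normalization and loess. With median centring 1902 of 12996 genes and 15 of 21 spindle partners were at least 2-fold lower. The medians were -1.48 for mitotic, -0.20 for transport and -0.26 for other kinesins, -1.17 for spindle partners, -0.025 for adaptors and -0.24 for dynein, with 1 transport kinesin, 0 adaptors and 1 dynein gene at least 2-fold higher. With quantile normalization other kinesins had a median of -0.25.

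The floor decided the calls of dim genes. With the floor at the 40th percentile 1 other kinesin was at least 2-fold lower, and also 1 with no floor (KIF26B at -1.22 and -1.94). Transport kinesins at least 2-fold higher numbered 3 with the floor at the 40th percentile, with no floor and with the floor added to the signal, KIF17 then standing at 1.05, 3.91 and 1.04. Raising the floor to the 60th percentile, or adding it to the signal before log2, left 0 other kinesins at least 2-fold higher (KIF25 at 0.52 and 0.85), and the addition left 1 adaptor higher. With the mean over probe sets 1 transport kinesin, 1 adaptor and 1 dynein gene were at least 2-fold higher, and the spindle partners' median was -1.08. Without shared-sequence probe sets 0 transport kinesins were at least 2-fold higher, with KIF3C at 0.40 and KIF5C at a lower bound of 0.80 (1.61 without a floor), so the count is itself a lower bound. Other kinesins had 1 lower, 0 higher and a median of -0.39, 1 adaptor and 1 dynein gene were higher, and 1 spindle partner was higher, NUMA1 at 1.24, while TRAK1 stood at -0.77. With the mean over probe sets KIF3C stood at 1.14 and NUMA1 at -0.08. Where no cause is named, none was tested. With the longer promoter window 12 mitotic windows held a CHR match instead of 7. Of the single-gene values, 103 of 116 for mitotic, 119 of 138 for transport and 75 of 86 for other kinesins shifted by less than that spread. Many of these could not shift, as other floors spare bright genes and probe set choices spare genes with 1 probe set. Of the differences of at least 2-fold 0 changed sign.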

Other observations

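KIF11 and KIF15 both push spindle poles apart, and their signals did not move together on these arrays. KIF11 minus KIF15 stood at -1.66 in the log2 differences, and between -1.66 and -1.43 under the alternatives run. Median centring, poly(A) scaling, the other floors and the choice of probe sets could not change this gap. It stood at -1.55 with quantile normalization, -1.54 with loess and -1.43 with the floor added to the signal. Each gene has a single probe set, so no second reading of this gap exists. The gap was noticed after the values were seen and has no test.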
